A study of Mus musculus with 9 samples.

Results

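Wnt signalling genes were followed in tumours of a mouse colon carcinoma line, from mice given a herb pair or saline, and in healthy colon. They comprised the secreted ligands, their receptors, the secreted inhibitors, the R-spondin branch and the genes that the pathway itself switches on. The set was defined by name, as the protein-coding genes of GENCODE M21 whose symbols begin with Wnt, Fzd, Sfrp, Dkk or Rspo and a digit, together with 19 further pathway genes, and all 60 were found by Ensembl identifier among the 56398 features of the deposited count and FPKM tables. The rule used names only and no expression value, but it was set with earlier results of these data known. The AC group held 3 tumour libraries from BALB/c mice injected with CT26 cells and given the herb pair Astragalus and Curcuma phaeocaulis Valeton, mixed 2:1, at 6 g/kg once a day. The model group held 3 CT26 tumour libraries from BALB/c mice given saline on the same daily schedule. The sham group held 3 libraries of healthy colon from BALB/c mice without tumour. CT26 is a single transplantable mouse colon carcinoma line, so all 6 tumours come from the same line, and each tumour also holds host cells. The sources used here do not give the site of injection or the age of the mice. Nor do the labels say that the 3 libraries of a group came from separate animals. Each library is called a tumour or a colon sample below with that limit.

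Wnt proteins are lipid-modified signals that bind a Frizzled receptor and a co-receptor, Lrp5 or Lrp6, on the surface of a nearby cell. Binding stops a cytoplasmic complex built on Axin from destroying beta-catenin, which then enters the nucleus and, with factors of the TCF/LEF family, switches on target genes. Several of those targets, among them Axin2, Nkd1, Notum, Rnf43 and Znrf3, encode brakes on the same pathway. In the intestine the pathway keeps the stem cells at the base of the crypts dividing, and R-spondins, acting through Lgr4 and Lgr5, strengthen it there by removing the ligases Rnf43 and Znrf3, which otherwise clear Frizzled receptors from the membrane.

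Library totals ran from 15690038 to 23476056 counts. The tumours carried few epithelial transcripts: 8 epithelial marker genes summed to 343, 318 and 890 CPM (counts scaled to library total) in AC tumours and 497, 266 and 230 CPM in model tumours, against 14358, 17623 and 17641 CPM in sham colon. Of that list, Krt20 alone stood at 318, 296 and 461 CPM in AC tumours and 273, 243 and 208 CPM in model tumours. In sham colon Krt20 stood at 3767, 4113 and 4177 CPM. Epcam, the epithelial adhesion protein, stood at 80.1 CPM in AC tumour 3 and 40.8 CPM in model tumour 1, and at no more than 1.12 CPM in the other 4 tumours. Sham colon 1 differed from the other sham samples, with 6 smooth muscle markers at 73.5 CPM against 868 and 927 CPM, and 4 B cell markers at 589 CPM against 68.9 and 30.4 CPM. Values without 1 of these libraries are given where its removal ended a call or moved a called value by over 1.5 times. In tissue extracts of this kind, fewer cells of a type and less RNA per cell cannot be told apart. Over all genes, the counts of sham colon 2 and 3 differed by a chi-square of 2.88 per degree of freedom. They differed from sham colon 1 by 88.6 and 105, and pairs within the tumour groups differed by 9.19 to 25.4. The spread within colon behind every comparison with tumours is thus uneven among its 3 libraries.

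Of the 60 genes, 23 reached a mean of at least 1 FPKM (counts scaled by the authors to gene length and library total) in at least 1 group. Those 23 were 2 of 19 Wnt ligands, 9 of 12 receptors, 4 of 9 genes of the R-spondin branch, 3 of 10 secreted inhibitors, 1 of 4 cytoplasmic regulators and 4 of 6 transcription factors. Ascl2 was the lowest of them by its highest group mean, at 1.19 FPKM in sham colon, and Axin2, at 0.988 FPKM in sham colon, and Fzd8, at 0.984 FPKM, lay just under the line. Wnt3a, Wnt9b and Dkk1 had no count in any library, which allows up to 0.191 CPM in the smallest library and 0.128 CPM in the largest.

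**Figure D1:**
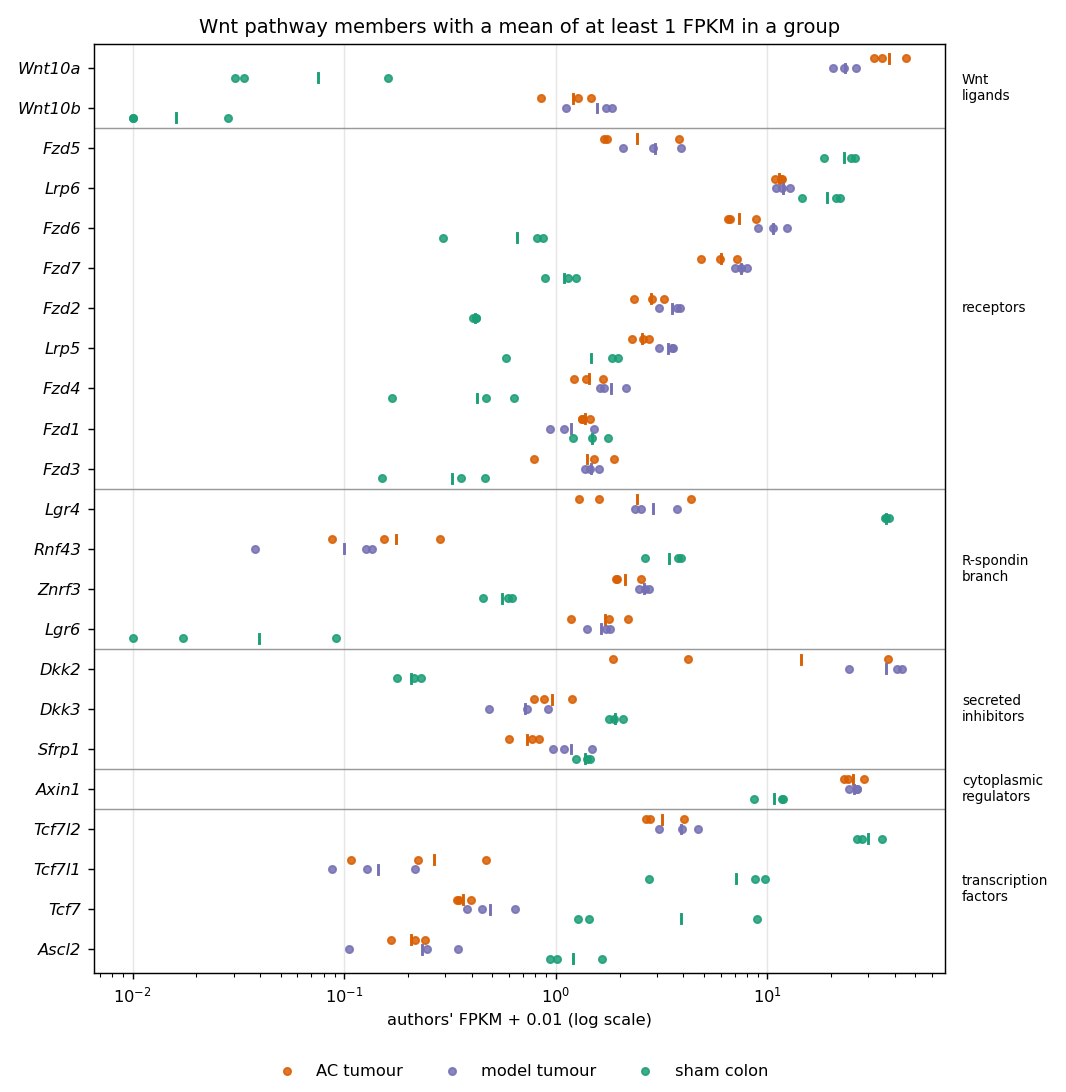
Level of each of the 23 members with a mean of at least 1 FPKM in a group, as authors' FPKM + 0.01 on a log axis; each point is a library (AC tumours, model tumours and sham colon, 3 each) and each vertical tick the group mean. Wnt10a, Wnt10b, Lgr6 and Dkk2 lie far to the right of colon in tumours, and Lgr4, Rnf43, Tcf7l1, Tcf7l2 and Fzd5 far to the left.

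The most abundant members differed between tumours and colon. In AC tumours the most abundant member was Wnt10a, at 37.4 ± 7.01 FPKM (SD, n = 3), followed by the scaffold Axin1 at 25.2 ± 2.9 FPKM. In model tumours it was Dkk2, at 36.1 ± 10.4 FPKM, followed by Axin1 at 25.8 ± 1.22 FPKM and Wnt10a at 23.2 ± 2.94 FPKM, with the lowest Dkk2 library, at 24.2 FPKM, inside the range of Wnt10a. In sham colon Lgr4 led at 36.5 ± 0.821 FPKM, followed by Tcf7l2 at 29.8 ± 4.42 FPKM and Fzd5 at 23.1 ± 4.03 FPKM.

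By edgeR with adjustment over all genes, 10 of 33 tested members were higher and 19 were lower in AC tumours than in colon, where 68.2% of 17832 genes were called, 35.5% as higher and 32.7% as lower. In model tumours against colon, 13 of 36 tested members were higher and 18 were lower, where 69.7% of 18228 genes were called, 36.8% as higher and 32.9% as lower. The groups did not overlap in TMM-scaled CPM for 29 of 33 tested members in AC tumours, against 75.8% of all genes, and for 31 of 36 in model tumours, against 76.7%. The median log2 fold change was -1.41 over the tested members against 0.10 over all genes in AC tumours, and -0.64 against 0.12 in model tumours. Members that are low everywhere dropped out of testing, so these counts and medians describe only genes with enough reads, and both comparisons share the same 3 sham libraries. Most genes tested differed between tumour and colon, and the member counts lie near that background for rises and above it for falls. Without scaling factors the split was 12 higher and 15 lower members in AC tumours and 15 of each in model tumours, while among all genes called the share of higher ones became 68.2% in place of 52.1% in AC tumours and 67.3% in place of 52.8% in model tumours.

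**Figure D2:**
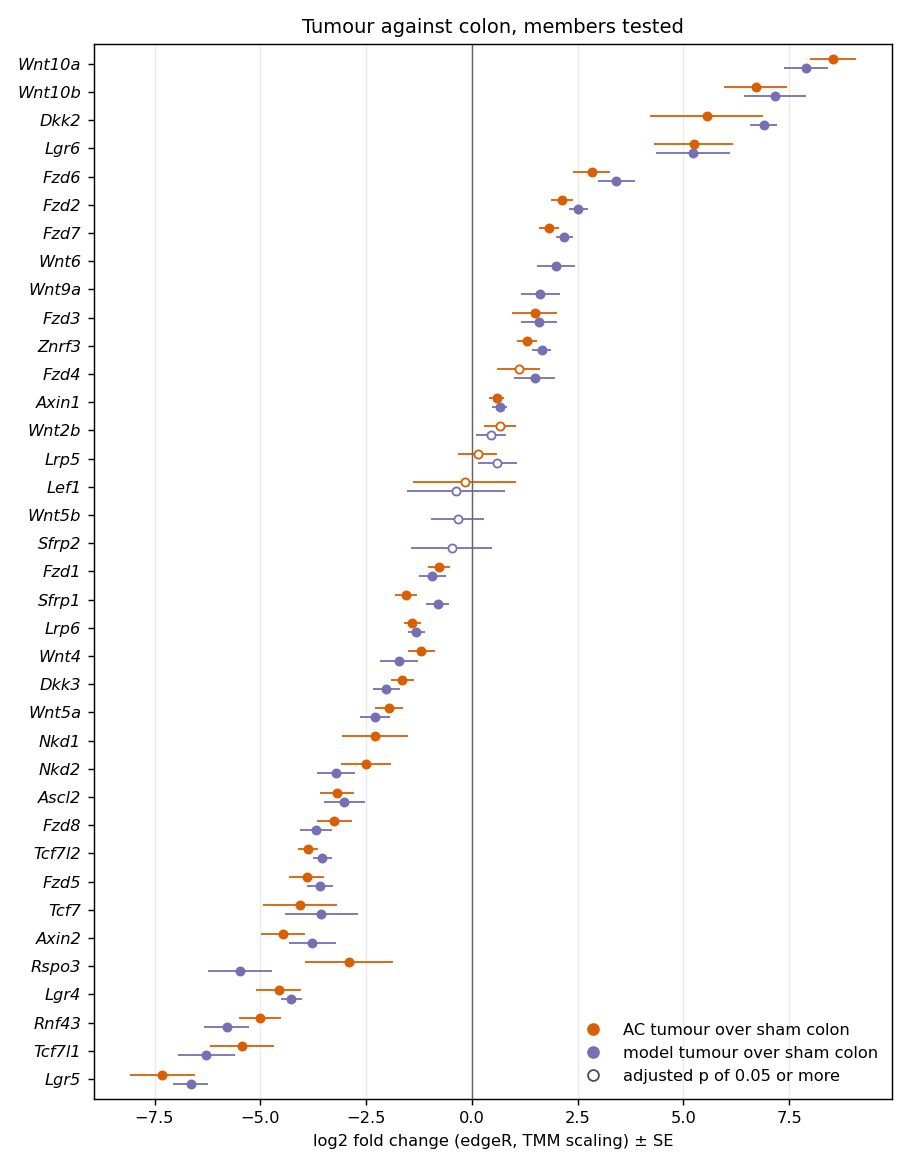
Log2 fold change ± SE (edgeR, TMM scaling) of each tested member in AC tumours over sham colon and in model tumours over sham colon, with open points for an adjusted p of 0.05 or more. Wnt10a and Wnt10b stand at the top and Lgr5 at the bottom, and both comparisons use the same sham libraries.

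Among the ligands, Wnt10a and Wnt10b rose in tumours while Wnt5a and Wnt4 fell. Wnt10a, a ligand of the canonical branch known for its part in hair, tooth and skin development (ENSMUSG00000026167, chromosome 1, 74791516 to 74804179 on GRCm38), measured 34.9, 45.3 and 31.9 FPKM in AC tumours, 20.3, 23.1 and 26.2 FPKM in model tumours and 0.151, 0.0236 and 0.0203 FPKM in sham colon. All 6 tumours lay above all 3 colon samples. The log2 fold change was 8.54 (SE 0.54, adjusted p 5.92e-05) in AC tumours and 7.89 (SE 0.524, adjusted p 4.95e-05) in model tumours, and without sham colon 1, the highest colon sample, it was 9.84 and 9.28. Wnt10a supplied 91.5%, 92.4% and 90.9% of the summed FPKM of the 19 Wnt genes in AC tumours and 82.4%, 87.9% and 86.7% in model tumours, against 6.9%, 1.38% and 1.13% in sham colon. That sum was 40.8 ± 7.29 FPKM in AC tumours, 27 ± 2.86 FPKM in model tumours and 1.9 ± 0.253 FPKM in sham colon (SD, n = 3 each). A tissue with many low ligands thus stood beside tumours in which 1 ligand made up most of the summed ligand FPKM.

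Wnt10b, a close relative of Wnt10a known for holding back fat cell formation, measured 1.26, 1.46 and 0.841 FPKM in AC tumours, 1.83, 1.1 and 1.71 FPKM in model tumours and 0.0183, 0 and 0 FPKM in sham colon. Its 201 counts over AC libraries against 1 count over sham libraries gave a ratio of 137 (95% counting interval 24.3 to 5430), and its 315 counts over model libraries a ratio of 185 (33 to 7344). The edgeR adjusted p was 0.000416 in AC tumours and 0.000241 in model tumours. Without sham colon 1, which held the only count of colon, Wnt10b stayed called (adjusted p 0.000398 and 4.39e-05), but both ratios rest on that 1 count: the fitted log2 fold change was 8.86 without it in AC tumours, in place of 6.71, and 9.45 in model tumours, in place of 7.16. Without sham colon 3 it was 6.57 (adjusted p 0.0012) in model tumours. Wnt6 lies 6193 bases upstream of Wnt10a on the same strand (chromosome 1, 74771892 to 74785322). Its levels were 0.0765, 0.145 and 0.879 FPKM in AC tumours, 0.797, 0.468 and 0.802 FPKM in model tumours and 0.17, 0.0797 and 0.0916 FPKM in sham colon. Wnt6 rose in model tumours (log2 fold change 1.99, SE 0.438, adjusted p 0.00616) and was not tested in AC tumours against colon, where only AC tumour 3 stood above colon.

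Wnt5a, the best known ligand of the branch that does not use beta-catenin, fell in both groups of tumours. It measured 0.186, 0.285 and 0.159 FPKM in AC tumours, 0.196, 0.177 and 0.101 FPKM in model tumours and 0.533, 0.492 and 0.532 FPKM in sham colon. The log2 fold change was -1.95 (SE 0.324, adjusted p 0.00204) in AC tumours and -2.29 (SE 0.353, adjusted p 0.0013) in model tumours. Wnt4 was also lower, at 0.324 ± 0.064 FPKM in AC tumours, 0.213 ± 0.115 FPKM in model tumours and 0.477 ± 0.0932 FPKM in sham colon (SD, n = 3 each), with adjusted p 0.0149 and 0.0139 for AC and model tumours. The Wnt4 call was lost without AC tumour 2 (adjusted p 0.0693), model tumour 2 (0.0537) or model tumour 3 (0.0604), and without scaling factors (0.17 in AC and 0.0538 in model tumours). Wnt9a rose in model tumours (log2 fold change 1.62, SE 0.462, adjusted p 0.0183), a call lost without sham colon 2 (0.0743) or model tumour 2 (0.0598). It was not tested in AC tumours against colon. Its mean was 0.338 FPKM in AC tumours, 0.343 FPKM in model tumours and 0.0722 FPKM in sham colon, with every AC tumour above every colon sample. Wnt2b stood at 0.519, 0.789 and 0.651 FPKM in AC tumours, 0.507, 0.599 and 0.519 FPKM in model tumours and 0.266, 0.166 and 0.346 FPKM in sham colon. In FPKM the tumours did not overlap colon, whereas in TMM-scaled CPM the model tumours overlapped it. With TMM scaling Wnt2b was not called (log2 fold change 0.67, adjusted p 0.163 in AC, and 0.44, adjusted p 0.298 in model tumours). Without scaling factors it was called higher in both (1.32, adjusted p 0.0192 in AC, and 1.05, adjusted p 0.0322 in model tumours). Wnt5b was tested in model tumours and not called (-0.33, adjusted p 0.651), and the other 11 ligands had too few counts to be tested in model tumours against colon. Wnt3, the ligand of Paneth cells, had 1 count over AC libraries, 1 over model libraries and 10 over sham libraries. The ligands below 1 FPKM are described here outside the rule by which genes were named, and were chosen after their values were seen.

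The receptors exchanged places. Fzd5, the Frizzled receptor known for a role in Paneth cell maturation, was the main receptor of colon and fell in tumours, while Fzd6, Fzd7 and Fzd2 rose. Fzd5 (ENSMUSG00000045005, chromosome 1, 64730558 to 64737751) measured 1.67, 1.74 and 3.82 FPKM in AC tumours, 3.88, 2.06 and 2.86 FPKM in model tumours and 18.5, 24.8 and 26 FPKM in sham colon. Its log2 fold change was -3.9 (SE 0.411, adjusted p 0.000333) in AC tumours and -3.58 (SE 0.307, adjusted p 0.000123) in model tumours. It made up 8.27%, 7.49% and 15.3% of the summed FPKM of the 10 Frizzled genes in AC tumours and 12.7%, 7.17% and 10.1% in model tumours, against 81.9%, 80.5% and 81.2% in sham colon. Without AC tumour 3 it was -4.4 (adjusted p 0.000137) in AC tumours, and without model tumour 1 it was -3.85 (adjusted p 0.000198) in model tumours. The highest Fzd5 values among tumours were in AC tumour 3 and model tumour 1, the libraries with Epcam, and the part of residual epithelium in them was not tested.

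Fzd6, a Frizzled receptor known for orienting hair follicles, measured 6.62, 6.48 and 8.77 FPKM in AC tumours, 10.6, 12.4 and 9.01 FPKM in model tumours and 0.284, 0.859 and 0.802 FPKM in sham colon (log2 fold change 2.83, SE 0.446, adjusted p 0.00167 for AC and 3.42, SE 0.439, adjusted p 0.000613 for model tumours). Fzd7, a receptor known from intestinal stem cells, measured 5.95, 7.16 and 4.86 FPKM in AC tumours, 7.48, 7.04 and 7.99 FPKM in model tumours and 1.13, 0.874 and 1.24 FPKM in sham colon (1.82, SE 0.237, adjusted p 0.000768 and 2.18, SE 0.195, adjusted p 0.000138). Fzd2 measured 2.33, 3.24 and 2.83 FPKM in AC tumours, 3.86, 3.07 and 3.71 FPKM in model tumours and 0.408, 0.398 and 0.411 FPKM in sham colon (2.13, SE 0.26, adjusted p 0.000588 and 2.52, SE 0.232, adjusted p 0.000156). For all 3 receptors every tumour lay above every colon sample. Despite this exchange, the summed FPKM of the Frizzled genes was 22.8 ± 2.41 in AC tumours, 29.2 ± 1.22 in model tumours and 28.5 ± 5.13 in sham colon (SD, n = 3 each). In FPKM, the model and sham sums differed by less than the spread within sham colon. FPKM carries no TMM scaling, whose factors were 1.18 to 1.30 in model and 0.793 to 0.836 in sham libraries. The sums were not compared on the TMM scale.

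Smaller rises were seen in Fzd3 and Fzd4. Fzd3, known for guiding axons, measured 0.777, 1.51 and 1.88 FPKM in AC tumours, 1.44, 1.36 and 1.58 FPKM in model tumours and 0.141, 0.346 and 0.455 FPKM in sham colon, with adjusted p 0.0427 in AC and 0.0136 in model tumours. Its call was lost in AC tumours without sham colon 1 (adjusted p 0.0588), sham colon 2 (0.102), AC tumour 2 (0.0969) or AC tumour 3 (0.117), and in model tumours without sham colon 2 (0.0506). Fzd4, the receptor of retinal vessels and of the ligand norrin, measured 1.21, 1.67 and 1.38 FPKM in AC tumours, 1.68, 1.61 and 2.13 FPKM in model tumours and 0.157, 0.46 and 0.627 FPKM in sham colon. It rose in model tumours (log2 fold change 1.49, SE 0.485, adjusted p 0.0303) and was not called in AC tumours (1.1, SE 0.502, adjusted p 0.0918), though it was called higher there without scaling factors (1.76, adjusted p 0.0164) and without AC tumour 3 and sham colon 1 together (0.64, adjusted p 0.0417). The model call of Fzd4 was lost without sham colon 2 (0.0905) or any 1 of the 3 model tumours (0.0591, 0.0597 and 0.0822). Fzd4 is a receptor of endothelium, and 4 endothelial markers summed to 115 to 151 CPM in AC tumours and 139 to 150 CPM in model tumours, against 22.8 to 29.7 CPM in sham colon. The part of vessels in the Fzd4 result was not tested.

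Fzd1 measured 1.44, 1.32 and 1.32 FPKM in AC tumours, 1.5, 1.09 and 0.924 FPKM in model tumours and 1.2, 1.76 and 1.47 FPKM in sham colon, so its groups overlapped in FPKM. With TMM scaling it was called lower in AC tumours (log2 fold change -0.77, SE 0.251, adjusted p 0.0305) and in model tumours (-0.93, SE 0.311, adjusted p 0.0327). Without scaling factors it was not called (adjusted p 0.673 in AC and 0.328 in model tumours), and each AC tumour left out (0.0782 to 0.1), sham colon 2 (0.116 and 0.075) or 3 (0.0853 and 0.0555), model tumour 2 (0.106) or model tumour 3 (0.114) left out also ended a call. Fzd8, just under 1 FPKM, fell to 0.16 ± 0.0532 FPKM in AC tumours and 0.114 ± 0.0111 FPKM in model tumours, against 0.984 ± 0.265 FPKM in sham colon (SD, n = 3 each), with adjusted p 0.000688 and 0.000231. Fzd9 and Fzd10, at no more than 6 counts over sham libraries, had no count in any tumour.

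The co-receptors moved less. Lrp6, the main co-receptor for Wnt ligands, measured 10.9, 11.6 and 11.7 FPKM in AC tumours, 11.7, 12.7 and 11 FPKM in model tumours and 14.6, 21 and 21.9 FPKM in sham colon. It fell by 1.41 (SE 0.201, adjusted p 0.00113) on the log2 scale in AC tumours and by 1.31 (SE 0.209, adjusted p 0.00152) in model tumours. Lrp5, its relative with a known role in bone mass, measured 2.28, 2.74 and 2.57 FPKM in AC tumours, 3.56, 3.55 and 3.06 FPKM in model tumours and 0.568, 1.84 and 1.96 FPKM in sham colon. Lrp5 was not called in AC tumours (log2 fold change 0.13, SE 0.458, adjusted p 0.811) or in model tumours (0.6, SE 0.455, adjusted p 0.274). Without sham colon 1 its log2 fold change in AC tumours was -0.36 (adjusted p 0.0505), and without scaling factors it was called higher in model tumours (1.22, adjusted p 0.0414).

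In the R-spondin branch the receptor of colon, Lgr4, fell and its relative Lgr6 rose. Lgr4, the R-spondin receptor spread through the crypt (ENSMUSG00000050199, chromosome 2, 109917647 to 110014257), measured 1.27, 1.58 and 4.34 FPKM in AC tumours, 3.71, 2.5 and 2.35 FPKM in model tumours and 36.2, 35.8 and 37.4 FPKM in sham colon. Its log2 fold change was -4.56 (SE 0.536, adjusted p 0.000508) in AC tumours and -4.27 (SE 0.25, adjusted p 3.55e-05) in model tumours, and AC tumour 3 and model tumour 1, with Epcam, were again the highest of their groups. Without AC tumour 3 the AC value was -5.32 (adjusted p 5.78e-05). Lgr6, an R-spondin receptor known from stem cells of skin, measured 1.17, 2.18 and 1.77 FPKM in AC tumours, 1.39, 1.72 and 1.79 FPKM in model tumours and 0.0817, 0 and 0.00732 FPKM in sham colon. Its log2 fold change was 5.24 (SE 0.942, adjusted p 0.00285) in AC tumours and 5.22 (SE 0.874, adjusted p 0.0019) in model tumours. Without sham colon 1, which held 9 of the 10 Lgr6 counts of colon, the values were 7.74 and 7.82, and without sham colon 2 the value in model tumours was 4.6. Lgr6 made up 47.8%, 57.7% and 28.95% of the summed FPKM of the 3 Lgr genes in AC tumours and 27.2%, 40.7% and 43.1% in model tumours, against 0.222%, 0% and 0.0194% in sham colon.

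Lgr5, the marker of crypt stem cells, stayed under 1 FPKM in every group, at 0, 0.0124 and 0 FPKM in AC tumours, 0.00415, 0.005 and 0.0118 FPKM in model tumours and 0.564, 0.448 and 0.455 FPKM in sham colon. Its 2 counts over AC libraries against 265 over sham libraries gave a ratio of 195-fold lower (95% counting interval 53.4 to 1616), and the 4 counts over model libraries a log2 fold change of -6.65 (SE 0.423, adjusted p 4.23e-05). Both AC counts came from AC tumour 2, and without it Lgr5 stayed called (adjusted p 0.00118). The membrane ligases moved in opposite directions. Rnf43 measured 0.145, 0.0777 and 0.275 FPKM in AC tumours, 0.117, 0.125 and 0.0277 FPKM in model tumours and 2.64, 3.75 and 3.9 FPKM in sham colon, and fell by 5.01 (SE 0.496, adjusted p 0.000263) on the log2 scale in AC tumours and by 5.8 (SE 0.525, adjusted p 0.00015) in model tumours. Znrf3, which shares its function, measured 1.93, 2.52 and 1.92 FPKM in AC tumours, 2.73, 2.63 and 2.47 FPKM in model tumours and 0.441, 0.583 and 0.61 FPKM in sham colon, and rose by 1.3 (SE 0.247, adjusted p 0.00354) and 1.65 (SE 0.222, adjusted p 0.000728). For both ligases, no tumour overlapped any colon sample. Without AC tumour 3 the value of Rnf43 was -5.56 (adjusted p 0.000315) in AC tumours, and without sham colon 1 as well it was -5.82.

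The R-spondins themselves were scarce. Rspo3, a stromal R-spondin of the gut, was the only 1 of the 4 with enough counts to be tested, at 0, 0.227 and 0.0201 FPKM in AC tumours, 0.0138, 0.0166 and 0 FPKM in model tumours and 0.181, 0.509 and 0.471 FPKM in sham colon. Its 2 counts over model libraries against 65 over sham libraries gave a ratio of 55.2-fold lower (95% counting interval 14.7 to 466), with adjusted p 0.000815. In AC tumours it was also called lower (log2 fold change -2.9, SE 1.05, adjusted p 0.0446), with AC tumour 2 inside the range of colon. That call was lost without sham colon 2 (adjusted p 0.114) or 3 (0.103), or AC tumour 1 (0.0974) or 3 (0.134), and the log2 fold change was -5.59 (adjusted p 0.0084) without AC tumour 2. The 6 smooth muscle markers summed to 95.6 CPM in AC tumour 2, against 11.1 and 26.4 CPM in the other AC tumours, and their part in the Rspo3 value was not tested.

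Among the secreted inhibitors, Dkk2 rose and Dkk3 and Sfrp1 fell. Dkk2, a Dickkopf protein that binds Lrp5 and Lrp6 (ENSMUSG00000028031, chromosome 3, 132085292 to 132180304), measured 1.85, 4.18 and 37.2 FPKM in AC tumours, 40.9, 24.2 and 43.3 FPKM in model tumours and 0.168, 0.22 and 0.203 FPKM in sham colon. All tumours lay above colon, but AC tumours 1 and 2 lay far below AC tumour 3 and all model tumours. The log2 fold change was 5.55 (SE 1.33, adjusted p 0.01) in AC tumours and 6.89 (SE 0.324, adjusted p 2.15e-05) in model tumours. In AC tumours it was 3.28 (adjusted p 0.00246) without AC tumour 3, and the call was lost without sham colon 1 (adjusted p 0.119). Dkk2 made up 70.35%, 82.7% and 96.9% of the summed FPKM of the 4 Dickkopf genes in AC tumours and 97.8% to 98.4% in model tumours, against 7.55% to 11.1% in sham colon.

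Dkk3, a divergent Dickkopf protein, measured 0.782, 0.873 and 1.18 FPKM in AC tumours, 0.913, 0.474 and 0.722 FPKM in model tumours and 2.06, 1.77 and 1.87 FPKM in sham colon. It fell by 1.65 (SE 0.274, adjusted p 0.00208) on the log2 scale in AC tumours and by 2.03 (SE 0.316, adjusted p 0.00137) in model tumours. Sfrp1, a secreted decoy with a Frizzled-like domain, measured 0.588, 0.758 and 0.825 FPKM in AC tumours, 1.47, 1.08 and 0.957 FPKM in model tumours and 1.39, 1.24 and 1.43 FPKM in sham colon. It fell in AC tumours (log2 fold change -1.55, SE 0.262, adjusted p 0.00221). In model tumours it was also called lower (-0.81, SE 0.272, adjusted p 0.0336), although the groups overlapped in FPKM and the call was lost without scaling factors (0.478), sham colon 3 (0.0611), model tumour 2 (0.112) or model tumour 3 (0.121). Wif1, which binds Wnt ligands directly, had no count in any tumour and 10, 0 and 6 counts in sham colon, so that 1 colon sample also had none, and it was not tested. Notum, the secreted enzyme that removes the lipid from Wnt proteins, had 1 count, in sham colon.

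Of the cytoplasmic regulators, Axin1 rose in tumours while the feedback genes that were tested fell. Axin1, the constitutive scaffold of the destruction complex (ENSMUSG00000024182, chromosome 17, 26138688 to 26195811), measured 23.1, 28.5 and 24 FPKM in AC tumours, 26.4, 24.4 and 26.6 FPKM in model tumours and 8.59, 11.8 and 11.6 FPKM in sham colon. It rose by 0.58 (SE 0.183, adjusted p 0.0272) on the log2 scale in AC tumours and by 0.66 (SE 0.172, adjusted p 0.0129) in model tumours. The AC call was lost without sham colon 2 (adjusted p 0.0657), sham colon 3 (0.0562), AC tumour 2 (0.0823) or AC tumour 3 (0.0503), with relative log expression factors (0.0687) and with DESeq2 (0.0708), and without sham colon 1 the log2 fold change was 0.33 (adjusted p 0.0363). Axin2, its inducible relative and a widely used readout of canonical signalling, measured 0.071, 0.0695 and 0.0677 FPKM in AC tumours, 0.0696, 0.0932 and 0.176 FPKM in model tumours and 0.486, 1.39 and 1.09 FPKM in sham colon. It fell by 4.46 (SE 0.52, adjusted p 0.000494) on the log2 scale in AC tumours and by 3.77 (SE 0.556, adjusted p 0.0011) in model tumours. Nkd2, a Dishevelled-binding antagonist, fell by 2.5 (SE 0.594, adjusted p 0.00911) in AC tumours and by 3.21 (SE 0.443, adjusted p 0.000831) in model tumours. Nkd1, its relative, measured 0.0613, 0.196 and 0.123 FPKM in AC tumours and 0.0955, 0.435 and 0.638 FPKM in sham colon, so these groups overlapped in FPKM. Nkd1 was tested in AC tumours only and called lower (log2 fold change -2.29, SE 0.771, adjusted p 0.0351). Leaving out sham colon 2 (0.0813) or 3 (0.113) or any 1 AC tumour (0.0569 to 0.113) ended that call.

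Of the transcription factors, all 4 with at least 1 FPKM in a group fell in tumours. Tcf7l2, the main TCF factor of intestinal epithelium (ENSMUSG00000024985, chromosome 19, 55741820 to 55933654), measured 2.65, 2.79 and 4.03 FPKM in AC tumours, 4.69, 3.05 and 3.93 FPKM in model tumours and 34.8, 26.5 and 28.1 FPKM in sham colon. It fell by 3.88 (SE 0.238, adjusted p 5.56e-05) on the log2 scale in AC tumours and by 3.54 (SE 0.224, adjusted p 4.27e-05) in model tumours, yet kept a like share of the summed FPKM of the 4 TCF/LEF genes, at 65.8% to 75.1% in AC tumours, 75.2% to 79.1% in model tumours and 71.9% to 72.9% in sham colon. Tcf7l1, a TCF factor that acts mostly as a repressor, measured 0.214, 0.0975 and 0.459 FPKM in AC tumours, 0.206, 0.118 and 0.0772 FPKM in model tumours and 2.76, 8.75 and 9.7 FPKM in sham colon (log2 fold change -5.43, SE 0.758, adjusted p 0.00102 and -6.27, SE 0.684, adjusted p 0.000314). Without AC tumour 3 the AC value was -6.12 (adjusted p 0.00213). The level of Tcf7l1 is uncertain because the antisense gene Gm15401 overlaps it, with 35, 152 and 223 counts in sham colon and at most 2 in any tumour, and the strand setting of the counting is not stated. Ascl2, a factor of crypt stem cells switched on by Wnt, measured 0.207, 0.157 and 0.23 FPKM in AC tumours, 0.236, 0.0949 and 0.336 FPKM in model tumours and 1.65, 1.01 and 0.927 FPKM in sham colon (-3.19, SE 0.399, adjusted p 0.000653 and -3.01, SE 0.493, adjusted p 0.00171). Sp5, a direct target in many tissues, had 1 count over AC libraries, 2 over model libraries and 10 over sham libraries.

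Tcf7 and Lef1, which are also factors of T cells and other lymphocytes, were highest in sham colon 1. Without that library the Tcf7 fall became smaller but stayed called, and Lef1 changed direction. Tcf7 measured 0.341, 0.388 and 0.332 FPKM in AC tumours, 0.633, 0.371 and 0.439 FPKM in model tumours and 8.93, 1.42 and 1.26 FPKM in sham colon. It fell by 4.06 (SE 0.88, adjusted p 0.00624) on the log2 scale in AC tumours and by 3.56 (SE 0.866, adjusted p 0.00945) in model tumours. Without sham colon 1 it fell by 2.68 (adjusted p 0.000172) and by 2.1 (adjusted p 0.000356). Lef1 measured 0.343, 0.965 and 0.545 FPKM in AC tumours, 0.509, 0.514 and 0.524 FPKM in model tumours and 1.27, 0.0597 and 0.04 FPKM in sham colon, and was not called in AC tumours (log2 fold change -0.17, SE 1.22, adjusted p 0.912) or in model tumours (-0.38, SE 1.16, adjusted p 0.783). Without sham colon 1 the direction turned and Lef1 was higher in AC tumours (2.86, adjusted p 0.00409) and in model tumours (2.73, adjusted p 0.000116). In that setting the colon group is only sham colon 2 and 3, whose counts differed from each other by a chi-square of 2.88 per degree of freedom and from those of sham colon 1 by 88.6 and 105, so that the spread within colon is much smaller there. The 5 T cell markers summed to 13.1, 10.7 and 18.4 CPM in AC tumours, 24.5, 16.7 and 25.8 CPM in model tumours and 68.6, 27.2 and 26.1 CPM in sham colon, and Cd3d, Cd3e, Cd3g and Cd4 of that list were highest in sham colon 1. Cd8a, the other gene of the list, was not: it stood at 7.09, 4.59 and 10.6 CPM in AC tumours, 12.6, 8.21 and 14.2 CPM in model tumours and 6.03, 9.56 and 10.9 CPM in sham colon. All 4 B cell markers were highest in sham colon 1, with Ms4a1 at 247 CPM there. The part of lymphocytes in the Tcf7 and Lef1 values was not tested.

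**Figure D3:**
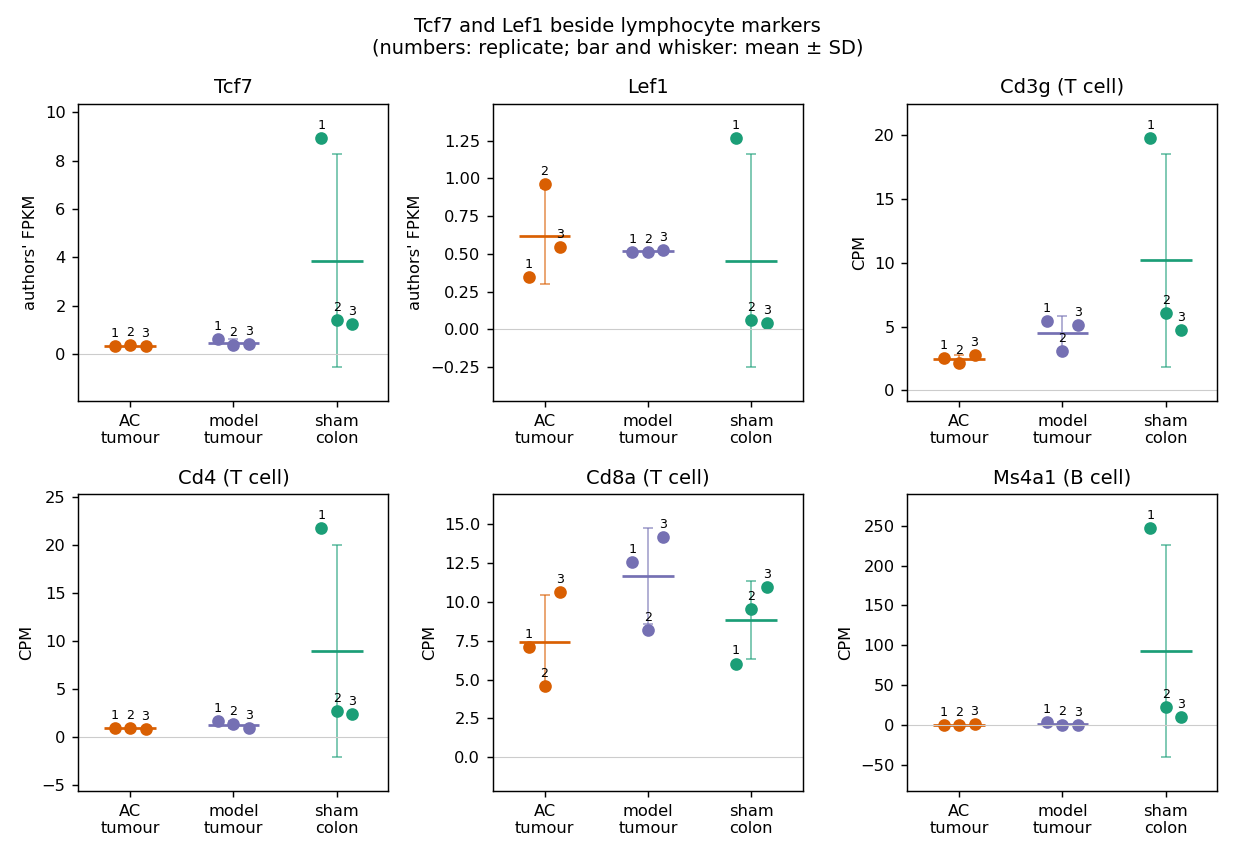
Tcf7 and Lef1 in authors' FPKM beside the lymphocyte markers Cd3g, Cd4, Cd8a and Ms4a1 in CPM, by library, with the group mean (bar) and SD (whisker) of 3 libraries and the replicate number above each point. Sham colon 1 is the highest library for Tcf7, Lef1, Cd3g, Cd4 and Ms4a1, and for Cd8a, at 6.03 CPM, it lies below every library but AC tumour 2.

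Promoter sequences are shown for 5 members: Axin2, Ascl2 and Sp5, targets with lower values in tumours, and Dkk2 and Wnt10b, which rose. They are RefSeq windows on GRCm38.p6, from 250 bases before to 50 bases after the annotated start, 5′ to 3′ on the strand of the gene, with capitals for the letters CTTTGAT, a core TCF/LEF motif, searched on both strands as the only motif. The windows are chr11:108920099-108920398 (plus strand) for Axin2, chr7:142969215-142969514 (minus strand) for Ascl2, chr2:70474673-70474972 (plus strand) for Sp5, chr3:132085042-132085341 (plus strand) for Dkk2 and chr15:98778101-98778400 (minus strand) for Wnt10b.
Axin2: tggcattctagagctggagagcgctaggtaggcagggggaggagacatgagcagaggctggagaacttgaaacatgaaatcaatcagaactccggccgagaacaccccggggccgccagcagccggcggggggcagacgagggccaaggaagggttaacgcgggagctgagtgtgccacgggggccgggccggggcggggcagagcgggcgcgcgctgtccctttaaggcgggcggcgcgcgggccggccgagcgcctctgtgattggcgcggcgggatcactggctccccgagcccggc
Ascl2: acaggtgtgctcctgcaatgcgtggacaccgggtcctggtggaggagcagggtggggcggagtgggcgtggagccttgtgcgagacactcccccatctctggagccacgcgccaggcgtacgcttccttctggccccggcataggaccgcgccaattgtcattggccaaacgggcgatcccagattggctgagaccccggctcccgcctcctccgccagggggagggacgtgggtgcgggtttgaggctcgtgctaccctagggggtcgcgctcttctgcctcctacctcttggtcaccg
Sp5: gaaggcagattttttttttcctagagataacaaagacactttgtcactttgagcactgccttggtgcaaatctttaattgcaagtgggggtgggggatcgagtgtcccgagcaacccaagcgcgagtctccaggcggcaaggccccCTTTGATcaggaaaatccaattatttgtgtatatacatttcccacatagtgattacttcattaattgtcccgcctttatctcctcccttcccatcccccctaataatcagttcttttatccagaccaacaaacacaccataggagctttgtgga
Dkk2: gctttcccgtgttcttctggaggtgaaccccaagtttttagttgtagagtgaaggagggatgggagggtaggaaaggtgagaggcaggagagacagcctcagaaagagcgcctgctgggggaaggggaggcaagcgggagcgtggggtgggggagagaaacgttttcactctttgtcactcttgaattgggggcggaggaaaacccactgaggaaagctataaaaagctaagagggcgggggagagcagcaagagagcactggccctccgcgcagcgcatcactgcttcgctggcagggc
Wnt10b: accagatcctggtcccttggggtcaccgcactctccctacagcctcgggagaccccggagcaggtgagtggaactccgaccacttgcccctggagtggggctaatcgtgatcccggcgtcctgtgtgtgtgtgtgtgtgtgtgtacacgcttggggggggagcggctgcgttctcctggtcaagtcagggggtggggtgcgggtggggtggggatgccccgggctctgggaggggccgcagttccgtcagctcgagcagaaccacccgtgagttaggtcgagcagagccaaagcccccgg
Of these, only Sp5 holds the letters, with the first base at position -104 from the start. Over the 40 members with an entry, 3 of 49 promoters held them (6.12%; Sp5, Wnt11 and Wnt5b), against 1225 of 32851 promoters in the whole table (3.73%). GC content was 70% for Axin2, 67% for Ascl2, 45% for Sp5, 57.7% for Dkk2 and 66.3% for Wnt10b.

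AC tumours were then compared with model tumours, to ask what the herb pair changed within the tumour. By edgeR no member was called among 28 tested, and 0% of 17137 genes were called. At an unadjusted p under 0.05 there were 5 of 28 members and 2253 of all genes, and DESeq2 called 289 genes, among them Wnt10a as higher and Fzd6 as lower. In TMM-scaled CPM the groups did not overlap for 5 of 28 members, where 19.1% of all genes did not overlap. The median log2 fold change was -0.19 over the tested members and 0.01 over all genes.

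The 6 members with the smallest p were Wnt10a, Lrp5, Fzd6, Sfrp1, Fzd7 and Znrf3. Wnt10a lay higher in each AC tumour (31.9 to 45.3 FPKM) than in any model tumour (20.3 to 26.2 FPKM), a log2 difference of 0.66 (SE 0.149) with an adjusted p of 0.231 by edgeR and 0.008 by DESeq2. Over the 14 alternatives its log2 fold change ran from 0.49 to 0.76 and its adjusted p from 0.008 to 0.929, and it was called higher without a filter on low counts (0.0464) and without AC tumour 3 (0.0337). The other 5 were receptors, a decoy and a ligase, all with lower means in AC tumours and none called by edgeR. Fzd6 stood at 6.48 to 8.77 FPKM in AC tumours and 9.01 to 12.4 FPKM in model tumours (-0.58, SE 0.164, adjusted p 0.264), and was called lower by DESeq2 (0.0495) and without AC tumour 3 (-0.74, adjusted p 0.0396). Lrp5 stood at 2.28 to 2.74 FPKM in AC tumours and 3.06 to 3.56 FPKM in model tumours (-0.45, SE 0.127, adjusted p 0.257). Sfrp1 stood at 0.588 to 0.825 FPKM in AC tumours and 0.957 to 1.47 FPKM in model tumours (-0.73, SE 0.266, adjusted p 0.321). The groups of these 4 genes did not overlap, whereas those of Fzd7 (-0.35, SE 0.147, adjusted p 0.356) and Znrf3 (-0.33, SE 0.153, adjusted p 0.404) overlapped in FPKM.

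**Figure D4:**
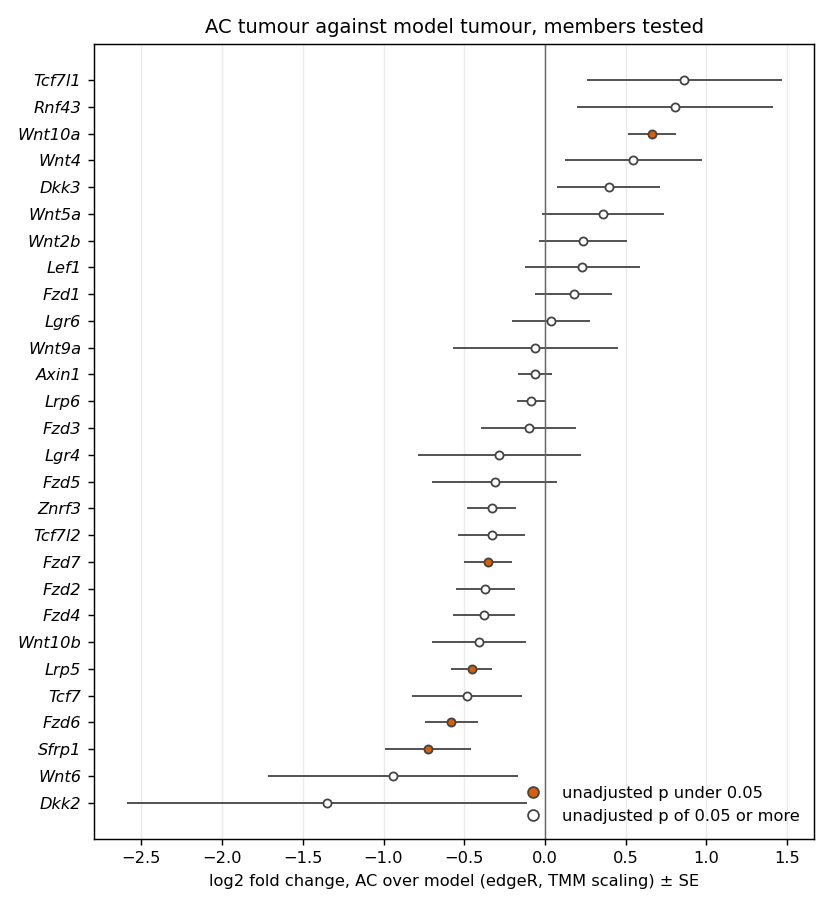
Log2 fold change ± SE (edgeR, TMM scaling) of the 28 tested members in AC over model tumours, with filled points for an unadjusted p under 0.05. Dkk2 has the lowest value and a wide error, and Wnt10a is the only filled point above 0.

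Dkk2 and Wnt6 split the AC group. Dkk2 stood at 1.85 and 4.18 FPKM in AC tumours 1 and 2 but at 37.2 FPKM in AC tumour 3, within the 24.2 to 43.3 FPKM of model tumours, and Wnt6 at 0.0765 and 0.145 FPKM but 0.879 FPKM in AC tumour 3, against 0.468 to 0.802 FPKM in model tumours. With all libraries neither was called (Dkk2 log2 fold change -1.35, SE 1.24, adjusted p 0.69, and Wnt6 -0.94, SE 0.774, adjusted p 0.633). Without AC tumour 3, where edgeR called 569 genes, Wnt6 was called lower (-2.65, adjusted p 0.039) and Dkk2 was not (-3.62, adjusted p 0.0534). Over all alternatives the adjusted p of Dkk2 ran from 0.0534 to 0.95 and that of Wnt6 from 0.039 to 0.955. Summed over 7 genes, the fibroblast markers stood at 431, 530 and 969 CPM in AC tumours and 1186, 864 and 1118 CPM in model tumours, with AC tumours 1 and 2 the lowest of the 6. The single markers differed among themselves. Dcn, a matrix proteoglycan, stood at 33.7, 90.1 and 240 CPM in AC tumours and 176, 179 and 241 CPM in model tumours, and Lum and Col3a1 also placed AC tumour 3 within the range of model tumours or above it. Col1a1 stood at 116, 117 and 120 CPM in AC tumours and 217, 146 and 151 CPM in model tumours, and Pdgfra and Pdgfrb likewise were lower in all 3 AC tumours than in any model tumour. Pi16 showed neither order, at 1.79, 1.78 and 2.36 CPM in AC tumours and 1.58, 2.67 and 1.88 CPM in model tumours. The part of fibroblasts in the Dkk2 and Wnt6 values was not tested. Epcam stood at 1.12, 0.64 and 80.1 CPM in AC tumours and 40.8, 1.03 and 0.303 CPM in model tumours, and its part was not tested either.

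**Figure D5:**
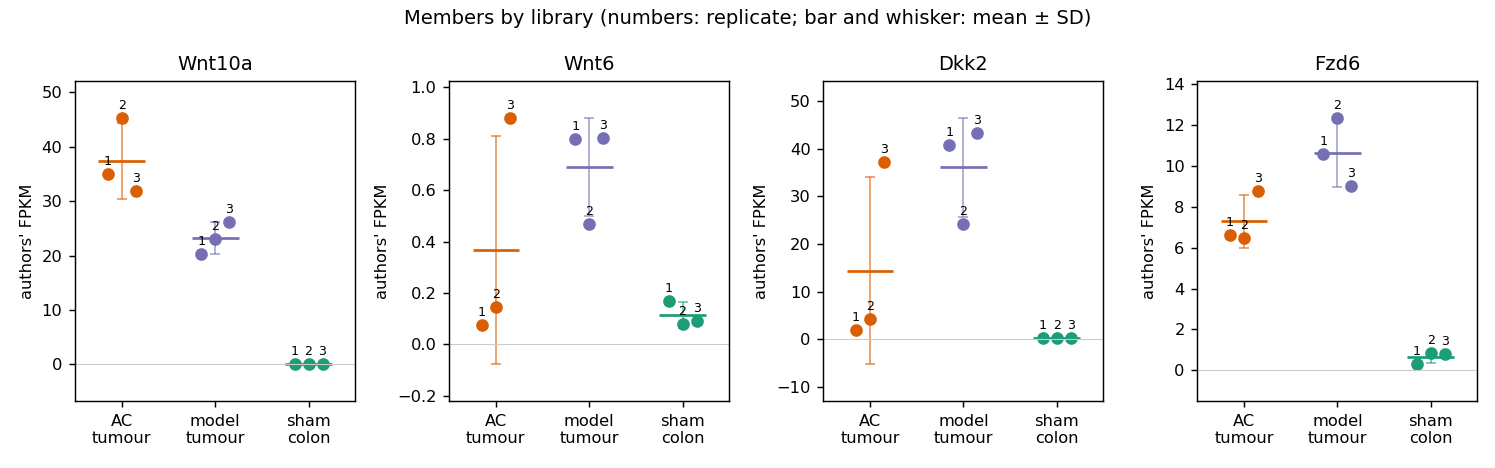
Wnt10a, Wnt6, Dkk2 and Fzd6 in authors' FPKM by library, with the group mean (bar) and SD (whisker) of 3 libraries and the replicate number above each point. AC tumours 1 and 2 lie near colon for Wnt6 and well below model tumours for Dkk2, while AC tumour 3 lies with the model tumours for both.

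Other genes of the pathway were followed in 4 lists. In ligand secretion and co-receptors, 7 of 16 tested genes rose and 5 fell in AC tumours, and 9 of 17 rose and 5 fell in model tumours (median log2 fold change 0.53 and 1.04, against 0.10 and 0.12 over all genes). Over all genes, 35.5% were called higher and 32.7% lower in AC tumours, and 36.8% and 32.9% in model tumours. Tpbg, a membrane protein known to hold back Lrp6 signalling, stood at 13.6 FPKM in AC tumours, 18.5 FPKM in model tumours and 0.197 FPKM in sham colon (log2 fold change 5.45 and 5.93, adjusted p 2.91e-05 and 1.44e-05). Adgra2, a receptor that helps Wnt7 signal in brain vessels, stood at 40.7 FPKM in AC tumours, 55.5 FPKM in model tumours and 0.296 FPKM in sham colon (6.44 and 6.93, adjusted p 5.18e-05 and 3.21e-05). Tmem59 fell, at 50.4 FPKM in AC tumours, 48.7 FPKM in model tumours and 215 FPKM in sham colon (-2.74 in both, adjusted p 5.87e-05 and 3.4e-05). In AC against model tumours none of 15 tested genes was called, and 9 had an unadjusted p under 0.05, against 2253 of all 17137 genes.

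Of the cytoplasmic and nuclear transducers, 10 of 33 tested genes rose and 8 fell in AC tumours, and 11 rose and 10 fell in model tumours (median 0.17 and 0.03). Fewer of them were called than the 68.2% and 69.7% of all genes. Beta-catenin's own gene, Ctnnb1, was among those that fell (-1.54, adjusted p 0.00139 in AC, and -1.59, adjusted p 0.00111 in model tumours), a gene chosen for mention after its value was seen. Tle4, a co-repressor of TCF factors, stood at 3.43 FPKM in AC tumours, 4.08 FPKM in model tumours and 11.4 FPKM in sham colon (-2.38 and -2.09, adjusted p 0.000141 and 6.82e-05). Csnk1e, a casein kinase that acts on Dishevelled, rose to 17 FPKM in AC and 12 FPKM in model tumours, against 2 FPKM in sham colon (2.43 and 1.97, adjusted p 0.000178 and 6.87e-05), and Ruvbl2, a chromatin-remodelling ATPase, to 34.2 FPKM in AC and 32.4 FPKM in model tumours, against 4 FPKM in sham colon (2.45 and 2.42, adjusted p 0.000122 and 0.000104). In AC against model tumours none of 33 was called, and 8 had an unadjusted p under 0.05, against the same 2253 of 17137 genes.

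In the planar polarity and calcium arm, 5 of 18 tested genes rose and 6 fell in AC tumours, and 5 rose and 5 fell in model tumours (median -0.07 and -0.05), again fewer than the 68.2% and 69.7% called over all genes. Daam1, a formin that links Dishevelled to the cytoskeleton, fell to 4.53 FPKM in AC and 3.77 FPKM in model tumours, against 27.1 FPKM in sham colon (-3.23 and -3.45, adjusted p 4.13e-05 and 2.82e-05). Vangl1, a core planar polarity protein, rose to 6.38 FPKM in AC and 6.77 FPKM in model tumours, against 0.706 FPKM in sham colon (2.52 and 2.65, adjusted p 7.02e-05 and 3.65e-05), and Plcb1, a phospholipase, to 2.99 FPKM in AC and 3.76 FPKM in model tumours, against 0.189 FPKM in sham colon (3.32 and 3.68, adjusted p 0.00051 and 0.000231). In AC against model tumours none of 16 was called, and 1 had an unadjusted p under 0.05, against 2253 of all 17137 genes.

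Among 25 tested further targets and crypt genes, 8 rose and 8 fell in AC tumours, and 11 rose and 8 fell in model tumours (median 0.19 and 0.44), counts near the 35.5% higher and 32.7% lower of all genes in AC tumours and the 36.8% and 32.9% in model tumours. Ccnd1, cyclin D1, rose to 161 FPKM in AC and 143 FPKM in model tumours, against 4.34 FPKM in sham colon (4.55 and 4.42, adjusted p 7.55e-05 and 6.04e-05). Nav2 rose to 6.61 FPKM in AC and 9.24 FPKM in model tumours, against 0.302 FPKM in sham colon (3.8 and 4.33, adjusted p 4.12e-05 and 2.71e-05). Apcdd1, a membrane inhibitor of Wnt signalling that stands in this list and in that of co-receptors, measured 5.85, 8.24 and 26.1 FPKM in AC tumours, 43.1, 16.8 and 33.2 FPKM in model tumours and 0.0889, 0.0624 and 0.143 FPKM in sham colon (6.4 and 7.64, adjusted p 0.000694 and 6.19e-05). As with Dkk2, AC tumours 1 and 2 had the lowest values of the 6 tumours. In AC against model tumours none of 22 tested genes was called, and 3 had an unadjusted p under 0.05, near the share over all genes (2253 of 17137).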

How the data were processed

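RNA-seq was run on 9 mouse samples in 3 groups of 3, grouped by the treatment given for each, with replicate numbers from the titles. Nothing in the labels says that replicates were separate animals, so a p-value here reflects the scatter among libraries, possibly technical in part. The authors deposited raw counts per gene and FPKM (counts divided by gene length and library total), made with featureCounts 1.5.0-p3 and build mm9, per the submitters' processing notes. Aligner and strand setting: not given in the sources used here. Gene length implied by both tables lay within 1% of GENCODE M21 (GRCm38) exons for 96.8% of 22279 genes with at least 20 counts, so coordinates given are those of GENCODE M21. Of 39 members with that many counts, Fzd8 alone differed, and its FPKM rests on a shorter length.

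Tests compared 2 groups at a time, using those 6 libraries only, from the deposited counts with edgeR 4.0.16 (R 4.3.3; TMM, filterByExpr, robust quasi-likelihood test, Benjamini-Hochberg over all genes tested, threshold 0.05). Fold changes therefore use TMM scaling, while FPKM does not: without scaling factors the median log2 difference of all genes was 0.77 in AC and 0.76 in model tumours against colon, and 0.14 and 0.17 with TMM. The SE beside a log2 fold change is not reported by edgeR. It was derived as the absolute log2 fold change divided by the square root of the F statistic of the test. CPM of markers are per library total. Members, lists, tests and alternatives were chosen with earlier results of these data known. Members with a mean of at least 1 FPKM in a group are named with values in every library. Also named are the 6 members with the smallest p in AC against model. From each pathway list, up to 3 genes with the smallest adjusted p in model against sham are named. Those list genes are given as group means, except Apcdd1, which has values in every library. Other genes were chosen after their values were seen. Of 60 members, 11 overlap an exon of a gene on the other strand. Intervals (95%, exact) and floors of 3 counts cover counting error only, since no molecular identifiers mark duplicate reads. DESeq2 1.42.0, other scaling factors, no filter, a fit of all 9 libraries, a replicate block and libraries left out were alternatives.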

Additional observations from a re-analysis of the deposited data

How the results depend on the processing

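In AC against model tumours edgeR called 0 genes, but 105 without a filter on low counts, 289 with DESeq2, 94 without model tumour 1 and AC tumour 3 together, and 0 to 569 with 1 library left out. Members called higher were 1 without the filter, 1 with DESeq2 and 0 to 1 with 1 library left out, and members called lower were 1 with DESeq2 and 0 to 2 with 1 library left out. Against colon, counts of members stayed within 1.5 times under all 14 alternatives of each comparison, 22 of 29 called members in AC tumours and 24 of 31 in model tumours keeping their call in every alternative that tested them.

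Some values changed sign. With 1 library left out, log2 fold changes of AC against model ran from -0.19 to 0.25 for Lgr6, -0.50 to 0.32 for Wnt9a, -1.04 to 0.025 for Lgr4, -0.39 to 0.19 for Fzd3, -0.17 to 0.0072 for Axin1 and -0.26 to 0.53 for Lef1, and without model tumour 1 and AC tumour 3 together Lgr6 was -0.10 and Wnt9a 0.29. In model against sham they ran from -0.85 to 0.099 for Sfrp2, -0.85 to 0.15 for Wnt5b and -0.95 to 2.73 for Lef1. In AC against sham they ran from -0.68 to 2.86 for Lef1 and -0.36 to 0.39 for Lrp5. Without scaling factors, Sfrp2 was 0.095, Wnt5b 0.28 and Lef1 0.19 in model against sham, and Lef1 0.45 in AC against sham. Without sham colon 1 and either model tumour 1 or AC tumour 3, Lef1 was 2.66 in model and 2.95 in AC tumours, and Lrp5 was -0.36 in AC tumours (adjusted p 0.0324). With the same pairs of libraries left out, values moved by over 1.5 times for Fzd5 (-4.65 in AC), Fzd6 (2.22 in AC), Fzd3 (0.75 in AC, adjusted p 0.0687), Nkd2 (-3.80 in model), Rspo3 (-6.11 in model) and Tcf7l1 (-6.60 in AC and -7.24 in model). Calls against colon of Fzd1 (0.0902 in AC and 0.0613 in model), Wnt4 (0.0549 in AC), Rspo3 (0.0529 in AC) and Sfrp1 (0.0842 in model) also ended without the filter, those of Rspo3 (0.091) and Nkd1 (0.0895) in AC without scaling factors, that of Fzd3 in AC with relative log expression factors (0.0578) and that of Wnt6 in model in the fit of all libraries (0.0567). The cause was not tested.

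Equal replicate numbers did not deviate together in every pair (correlations of -0.37, 0.33 and -0.15 in AC against model). Deviations were taken from the mean of each group's own 3 libraries, so these correlations cannot decide whether replicate numbers pair the samples. With the replicate block edgeR called 11774 genes in model against sham and 11303 in AC against sham, against 12697 and 12165 without it, and 0 in AC against model. With the block Lgr6 was -0.0050 in AC against model and Lef1 was 1.15 in model and 1.41 in AC tumours against colon. The block ended the calls of Fzd1 (0.0775 in model and 0.0889 in AC), Sfrp1 (0.0725 in model) and Wnt9a (0.0659 in model).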
